A study of Mus musculus with 58 samples.

Results

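The genes described here are the 7 genes of the MHC class II presentation pathway that were chosen by name, H2-Aa, H2-Ab1, H2-Eb1, H2-DMa, H2-DMb1, Cd74 and Ciita, out of 47643 gene identifiers in the count tables. All 7 were matched by symbol to 1 Ensembl identifier each, and their counts were read in 34 microglia libraries of 8 groups. Primary microglia from wild-type mouse pups received 2 µg/ml full-length tau fibrils or vehicle for 24 h (4 cultures each). Adult microglia were taken with CD11b beads from male PS19 mice, which carry the P301S form of human tau, and from NTG mice without the transgene (4 mice each, 10.98 or 11.18 months old). Primary microglia of 4 genotypes formed the other groups. IkbkbCA cultures (n = 5) carried the IkbkbCA F/F allele, a constitutively active form of the NF-κB activating kinase IKKβ, together with Cx3cr1 CreERT2, and IkbkbWT cultures (n = 5) carried IkbkbCA F/F with no Cre. Ikbkb-/- cultures (n = 4) carried Ikbkb F/F together with Cx3cr1 CreERT2, and Ikbkb+/+ cultures (n = 4) carried Ikbkb F/F with no Cre. All cultures of these 4 genotypes, controls included, had been given 4-hydroxytamoxifen for 3 days. The Cre driver is an allele of Cx3cr1, so the groups with an altered kinase also differ from their controls by Cre and by 1 copy of that receptor gene. Another 24 cortex samples of the series were not analysed here.

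MHC class II molecules present peptides of ingested protein to CD4+ T cells. An α chain and a β chain, such as H2-Aa with H2-Ab1, pair in the endoplasmic reticulum with the invariant chain Cd74. H2-Eb1 is the β chain of another pair. Cd74 blocks the groove and guides the complex to endosomes, where proteases such as cathepsin S degrade it. The H2-DM dimer (H2-DMa, H2-DMb1) then swaps the last fragment of Cd74 for antigen. Ciita is the co-activator that switches these genes on, classically after interferon-γ, and it acts through an RFX and NF-Y complex on the X and Y boxes of their promoters. Resting microglia are known to carry little class II, and class II is a usual sign of their activation.

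In the GRCm38 genome, H2-Aa (ENSMUSG00000036594) lies on chromosome 17 at 34282744 to 34287823 on the minus strand. H2-Ab1 (ENSMUSG00000073421) lies beside it at 34257689 to 34269419 and H2-Eb1 (ENSMUSG00000060586) at 34305867 to 34316674, both on the plus strand. H2-DMa (ENSMUSG00000037649; 34119541 to 34139101) and H2-DMb1 (ENSMUSG00000079547; 34153072 to 34160230) are on the same chromosome and strand. Exons of H2-DMa overlap Brd2 on the opposite strand, and H2-DMb1 has a near copy, H2-DMb2, so counts of these genes may be split or shared.

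RefSeq promoter windows (build GRCm38.p6, 250 bases before to 50 after the start) were at hand for 4 of the 7 members: H2-Aa, H2-Eb1, H2-DMa and H2-DMb1. Stretches of 3 of them are shown because Ciita is known to act on class II genes through X and Y elements, and the stretches hold the letters of one or both. Capitals mark the letters AGNAAC, a core of the X box, and GATTGG, a core of the Y box, found on either strand. The stretch of H2-Aa is chr17:34287852-34287951 (minus strand), that of H2-Eb1 is chr17:34305739-34305838 (plus strand) and the short one of H2-DMb1 is chr17:34153093-34153122 (plus strand).
H2-Aa: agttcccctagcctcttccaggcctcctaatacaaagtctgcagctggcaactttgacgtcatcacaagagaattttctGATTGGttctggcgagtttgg
H2-Eb1: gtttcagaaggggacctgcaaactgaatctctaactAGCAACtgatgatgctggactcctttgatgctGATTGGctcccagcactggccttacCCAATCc
H2-DMb1: cctAGTAACtgatgatgctaggctgattca
H2-Eb1 has the X core at -92 and the Y core at -60 from its start, and H2-DMb1 has them at -95 and -62, the Y core lying beyond the bases shown. An X core followed by a Y core 10 to 40 bases on was found in 184 of 32851 promoter windows (0.56%), whereas AGNAAC alone was in 48.1% and GATTGG alone in 16.1%. H2-Aa has GATTGG at -49 and no match to AGNAAC in the window. That says only that those letters are not in it. In H2-DMa the 2 listed start windows held no such pair.

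Levels are given as CPM, counts scaled to library size, after 1 normalisation over the 34 libraries, and fold changes come from the fit of each comparison. These are 3′ tag counts, of which a transcript gives about 1 whatever its length. Library totals ranged from 1672052 to 8349128 counts, so 1 count was worth about 0.1 to 0.6 CPM, and several members sat at that limit in culture. In bulk RNA, fewer cells that express a gene and less RNA per cell cannot be told apart.

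**Figure D1:**
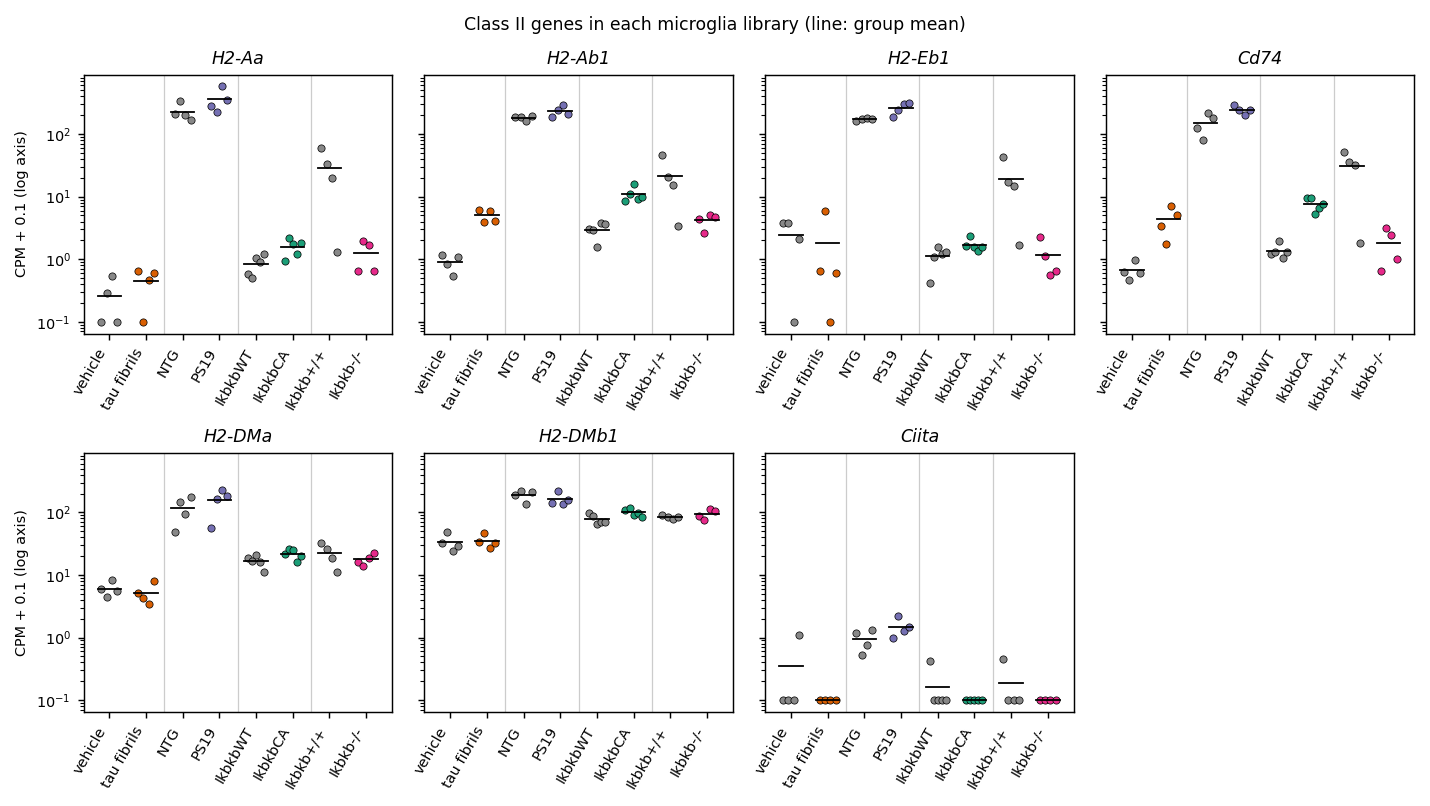
CPM plus 0.1 (log axis) of each class II gene in each of the 34 libraries by group, with a line at the group mean and controls in grey. Adult libraries sit highest, and 3 of the 4 Ikbkb+/+ libraries stand above the other cultures for H2-Aa, H2-Ab1, H2-Eb1 and Cd74.

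Adult microglia carried much more class II RNA than any culture group, whatever the tau genotype. H2-Aa averaged 359 ± 156 CPM in PS19 and 228 ± 75.3 in NTG (SD, n = 4 each). Its mean was 28.5 ± 25.0 in Ikbkb+/+ (n = 4) and between 0.155 and 1.48 CPM in the other 5 culture groups. In each of the 6 members from H2-Aa to Cd74 the lowest adult library lay above the highest culture library. PS19 and NTG overlapped for 5 of these 6, the exception being H2-Eb1. The order PS19, NTG, Ikbkb+/+ opened the ranking of group means for H2-Aa, H2-Ab1, H2-Eb1, H2-DMa and Cd74, and below it the neighbouring groups mostly overlapped. Adult and cultured cells differ in age, isolation and days in culture, which cannot be told apart here, so no test was made between them.

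Among the members other than Ciita, H2-DMb1 was nearest to its adult level in every culture library. Its partner in the exchange factor, H2-DMa, lay further below its own. H2-DMb1 averaged 189 ± 36.3 CPM in NTG and 164 ± 39.8 in PS19 (n = 4 each), against 78.03 ± 14.3 in IkbkbWT (n = 5), 84.4 ± 5.48 in Ikbkb+/+ (n = 4) and 33.4 ± 10.6 in vehicle (n = 4). H2-DMa averaged 116 ± 55.4 CPM in NTG, 16.6 ± 3.48 in IkbkbWT and 5.96 ± 1.64 in vehicle. Outside this cluster lie Cd74 (ENSMUSG00000024610; chromosome 18, 60803848 to 60812652) and Ciita (ENSMUSG00000022504; chromosome 16, 10480059 to 10528418, with exons that overlap Dexi on the opposite strand). Ciita was barely seen in any library. It had 1 to 8 counts in each adult library, 28 counts in all 4 PS19 and 8 in all 4 NTG libraries, and 5 counts in all 26 culture libraries together. It had 0 counts in the tau fibril, IkbkbCA and Ikbkb-/- groups, and 3 counts would be worth 0.336, 0.107 and 0.182 CPM over those groups, so a level below these would not have been detectable. Ciita passed the count filter in none of the 4 comparisons, and no fold change is given for it.

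The labelled cell type was checked on 10 microglia markers (among them Cx3cr1, P2ry12 and Csf1r), whose summed level was 23730 to 40480 CPM in the adult libraries and 3631 to 12120 CPM in culture. Cd79a and Ms4a1, which mark B cells, another class II bearing cell, were at 0 counts in the adult groups. Other genes of the B cell list were present there: Cd79b at 3.23 to 14.6 CPM, Ebf1 at 4.12 to 21.99 CPM, Igkc at 0.296 to 30.5 CPM and Ighm at 281 to 484 CPM. The whole list of 8 genes summed to 319 to 508 CPM, of which Ighm made up most, and its part in the class II levels was not tested. The 8 dendritic cell genes summed to 20.2 to 79.3 CPM in adult and 2.58 to 17.8 CPM in culture libraries. Granulocyte genes summed to 431 to 2717 CPM in the adult libraries and border-associated macrophage genes to 684 to 1692 CPM, and their part in the class II levels was not tested.

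Before the comparisons, the Ikbkb+/+ libraries need a description of their own, because 3 of the 4 stand apart. A list of 10 genes was made after the data were seen, of non-members with a mean of at least 30 CPM in the 8 adult libraries and at most 1 CPM in each of the 18 tau fibril, vehicle, IkbkbWT and IkbkbCA libraries. It holds Ebf3, Cdh23, Retnlg, Pdcd1, Ltf, Ccr6, Cldn5, Upk1b, Adgrf5 and Ly6c1, among them genes of granulocytes (Retnlg, Ltf) and of endothelium (Cldn5). Their summed level was 11.6%, 10.7% and 6.18% of the adult mean in Ikbkb+/+ libraries 1, 2 and 3, and 0.486% in library 4. The 4 Ikbkb-/- libraries, which the list did not use, were at 0.246% to 0.638%. Siglech, a lectin of homeostatic microglia, was at 304, 200 and 91.5 CPM in Ikbkb+/+ libraries 1 to 3 and at 9.80 CPM in library 4, against 8.01 to 15.5 CPM in Ikbkb-/- and a mean of 2170 ± 323 CPM in NTG. Thus libraries 1 to 3 hold genes of the adult libraries that library 4 and the Ikbkb-/- libraries hardly show. In the 18 libraries used for the list, low levels were set by its rule. Ccr6, the list gene with the highest adult mean (123 CPM), was an exception in library 1. It was at 0.359 CPM there, 11.3 and 7.54 CPM in libraries 2 and 3 and 0.795 CPM in library 4.

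Sex differed between these groups too. Ddx3y, a gene of the Y chromosome, was at 35.0 to 68.2 CPM in Ikbkb+/+ and at 154 to 172 CPM in Ikbkb-/-, and Xist, expressed from the inactive X of females, was at 239 to 399 CPM and 5.58 to 10.4 CPM. Sex mix and genotype therefore cannot be told apart in that comparison. In IkbkbWT, 3 libraries had 141 to 172 CPM of Ddx3y and 2 had 1.10 to 1.98 CPM, while all 5 IkbkbCA libraries lay between 48.9 and 84.1 CPM. Of the adult libraries, all labelled male, PS19 library 1 had 175 CPM of Xist and the other 7 had 1.88 to 33.0 CPM.

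Ikbkb itself was read in every library as a check of the genotypes. It was at 24.6, 24.4, 18.4 and 22.2 CPM in Ikbkb-/- and at 52.4, 44.7, 53.0 and 55.1 CPM in Ikbkb+/+, with no overlap. In the fit it fell by 1.20 ± 0.12 on the log2 scale (SE; edgeR quasi-likelihood test, adjusted p = 6.34e-07). In IkbkbCA it averaged 52.0 ± 6.71 CPM against 45.5 ± 7.10 in IkbkbWT (adjusted p = 0.405, edgeR), and tags of its 3′ end do not show whether the active form was made.

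The first comparison asked what tau fibrils did to class II RNA in cultured wild-type microglia. H2-Ab1 was at 6.11, 3.77, 5.90 and 3.96 CPM with fibrils and at 1.07, 0.746, 0.432 and 0.999 CPM with vehicle. Cd74 was at 3.33, 1.68, 7.01 and 4.95 CPM with fibrils and at 0.533, 0.373, 0.864 and 0.499 CPM with vehicle. For both the β chain and the invariant chain every fibril culture lay above every vehicle culture, although the levels stayed far below those of adult cells. Summed over cultures, H2-Ab1 had 44 counts against 9, a depth-corrected ratio of 6.34 (exact 95% counting interval 3.05 to 14.8). Cd74 had 39 counts against 6, a ratio of 8.43 (3.54 to 24.3). The intervals cover counting error only. The exact two-sided permutation test on mean CPM gave p = 0.029 for each, the smallest that 4 against 4 can give, and 2953 of 10408 tested genes (28.4%) did not overlap between these groups. Markers of other cells moved between the same cultures: the summed level of astrocyte genes was 643 to 688 CPM with vehicle and 350 to 414 CPM with fibrils (4 of 6 lower), that of neuron genes 123.5 to 154.5 and 65.6 to 75.8 CPM (5 of 6 lower), that of microglia genes 3631 to 4403 and 6798 to 8001 CPM (5 of 9 tested higher) and that of border-associated macrophage genes 299.6 to 378.5 and 1093 to 1284 CPM (3 of 4 tested higher). Reads with no feature made up 23.3% to 29.1% with vehicle and 16.25% to 22.2% with fibrils. The part of these differences in the class II values was not tested.

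For the other chains no such rise was measured, and the difference between chains was not tested. H2-Aa, the α partner of H2-Ab1, had 3 counts over the fibril cultures and 2 over the vehicle cultures, so both were at or under the floor of 3 counts and no difference was detectable at this depth. H2-Eb1 was at 0.556, 5.86, 0 and 0.495 CPM with fibrils and at 3.73, 3.73, 0 and 2.00 CPM with vehicle, and a single fibril culture lay above all vehicle cultures (exact permutation p = 0.83). H2-DMa and H2-DMb1 were the 2 members that passed the count filter, and neither of the 2 was called (edgeR, log2 fold change -0.23 ± 0.40 and 0.02 ± 0.22, adjusted p 0.712 and 0.961), in a comparison in which 29.9% of 10408 genes were. None of the 2 had an unadjusted p under 0.05, and DESeq2 and limma-voom called 0 as well. Without the count filter, H2-Ab1 (log2 fold change 2.58, adjusted p = 0.00185, edgeR) and Cd74 (2.90, adjusted p = 0.00201, edgeR) were called higher.

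Upstream of Ciita, 6 of 7 tested genes of the interferon-γ route rose with fibrils and 0 fell, with a median log2 fold change of 1.03 against -0.01 over all genes tested. Of all 10408 genes tested, 1506 rose and 1602 fell. Irf1, an interferon-induced factor that acts on the Ciita promoter, rose from 26.9 ± 5.58 to 92.8 ± 14.5 CPM (n = 4 each), by 1.73 ± 0.17 on the log2 scale (adjusted p = 9.67e-09, edgeR), and the receptor chain Ifngr2 by 1.16 ± 0.17. Of the 7 genes of the enhanceosome, the promoter complex of class II, Nfya was called (0.67 ± 0.24, adjusted p = 0.0362, edgeR) and Rfx5 was at 0.31 ± 0.24 (adjusted p = 0.364, edgeR). The class I pathway stood in contrast in the number of genes called, with 10 of 11 genes higher and a median of 2.64. H2-Ab1 and Cd74 are not in the class II count, because they did not pass the count filter. H2-K1, a classical class I heavy chain, rose by 3.30 ± 0.15 and B2m, its light chain, by 2.66 ± 0.15. Among the processing genes 3 of 9 rose and 1 fell: Ctss, the protease that trims Cd74, rose by 1.16 ± 0.12, Sppl2a, which clears the rest of Cd74 from the membrane, by 1.34 ± 0.14 and the thiol reductase Ifi30 by 1.15 ± 0.16, while the protease Ctsd fell by 0.65 ± 0.14. March1, a ligase that sends class II to lysosomes, was among the 5 of 8 traffic genes that rose (2.02 ± 0.24), with Cd82 (1.63 ± 0.24), Tnfaip2 (1.5 ± 0.14) and Cd37 (0.62 ± 0.21). Spi1, the myeloid factor PU.1, rose by 1.5 ± 0.15 as 1 of 3 tested genes of myeloid Ciita control.

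**Figure D2:**
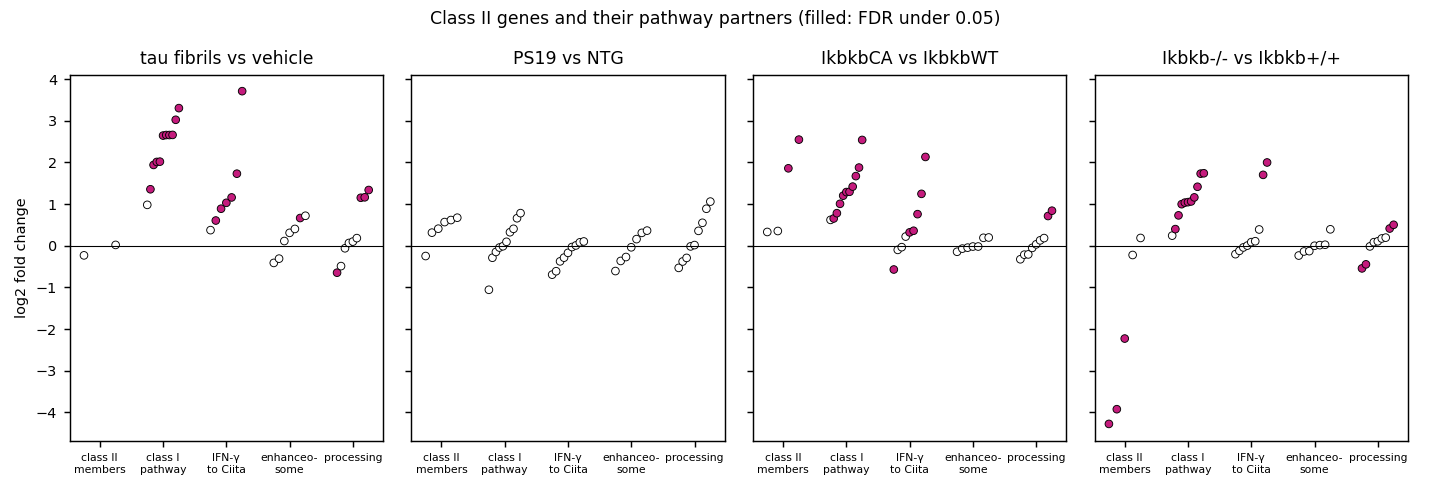
Log2 fold change of each tested gene in 5 lists, by comparison, with filled points for an adjusted p under 0.05. The class I genes lie above 0 in 3 of the 4 panels, while the called class II members lie above 0 in IkbkbCA and below 0 in Ikbkb-/-.

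The second comparison asked whether tau pathology in the brain changed class II RNA in adult microglia. H2-Eb1 was at 190, 245, 304 and 308 CPM in PS19 and at 160, 172, 180 and 177 CPM in NTG. Cd74 was at 287, 246, 202 and 246 CPM in PS19 and at 126, 78.8, 214 and 183 CPM in NTG. The PS19 mice all lay above the NTG mice for H2-Eb1, the lowest by a small margin, and 3 of 4 did so for Cd74. H2-Aa ranged from 225 to 580 CPM in PS19 and from 167 to 338 CPM in NTG, the highest value being PS19 library 3, and H2-Ab1 from 187 to 295 and from 161 to 197 CPM.

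None of the 6 members tested was called in PS19, where 8 of 11323 genes were (0.0707%, in either direction). The log2 fold changes were 0.57 ± 0.19 for H2-Eb1, 0.67 ± 0.27 for Cd74, 0.62 ± 0.30 for H2-Aa, 0.31 ± 0.19 for H2-Ab1, 0.41 ± 0.41 for H2-DMa and -0.25 ± 0.22 for H2-DMb1, with adjusted p from 0.427 to 0.82 (edgeR). Unadjusted, H2-Eb1 (0.01) and Cd74 (0.0275) were under 0.05, as were 8.63% of all genes, and DESeq2 and limma-voom called 0 members. The exact permutation test gave p = 0.029 for H2-Eb1, and 5.9% of tested genes did not overlap between PS19 and NTG. Without PS19 library 1, the one with Xist, H2-Eb1 was at 0.68 (adjusted p = 0.317, edgeR), and with age as a covariate at 0.52 (adjusted p = 0.98). With age as a covariate Cd74 was at 0.28 and H2-Aa at 0.95 (adjusted p = 0.983 and 0.98, edgeR), and without PS19 library 3 H2-Aa was at 0.29 (adjusted p = 0.783). The median over the 6 members was 0.49 against 0.00 over all genes, and 0 genes of the class I, interferon-γ, enhanceosome and processing lists were called. The related chains H2-Oa and H2-Ob, which form the inhibitor of H2-DM, averaged 59.5 ± 28.9 and 64.6 ± 43.5 CPM in PS19 and 47.6 ± 5.39 and 49.2 ± 17.5 CPM in NTG (n = 4 each).

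The third comparison asked what a constitutively active IKKβ did to class II RNA with no tau added. H2-Ab1 was at 8.43, 11.1, 15.6, 9.17 and 9.81 CPM in IkbkbCA and at 2.91, 2.81, 1.49, 3.62 and 3.52 CPM in IkbkbWT. Cd74 was at 9.27, 9.54, 5.15, 6.57 and 7.60 CPM in IkbkbCA and at 1.13, 1.20, 1.86, 0.946 and 1.21 CPM in IkbkbWT. All IkbkbCA cultures lay above all IkbkbWT cultures for both, and the 2 IkbkbWT libraries with little Ddx3y were the highest of their group for H2-Ab1 but not for Cd74. H2-Ab1 rose by 1.86 ± 0.26 on the log2 scale, 3.63-fold (adjusted p = 0.00051, edgeR), and Cd74 by 2.55 ± 0.26, 5.85-fold (adjusted p = 5.94e-05, edgeR). Reads with no feature also did not overlap between these groups, at 12.39% to 13.99% in IkbkbCA and 15.9% to 18.7% in IkbkbWT, and their part in the change was not tested. The exact permutation test gave p = 0.0079 for each, the smallest that 5 against 5 can give. With the level of Ddx3y as a covariate the changes were 2.01 and 2.50, and both were still called (adjusted p = 0.000333 and 0.00017, edgeR).

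These were 2 of the 4 members tested, against 7.31% of 11697 genes called higher, and 12.3% of genes did not overlap between the groups. Cd74 passed the count filter through IkbkbCA, where it is high, with 28 to 55 counts a library against 6 to 11 in IkbkbWT. The number called is therefore no support. H2-DMa (0.35 ± 0.17, adjusted p = 0.205) and H2-DMb1 (0.33 ± 0.12, adjusted p = 0.102, edgeR) were not called. H2-Aa had 40 counts in IkbkbCA and 25 in IkbkbWT (ratio 1.83, exact 95% counting interval 1.08 to 3.14). H2-Eb1 had 44 and 33 (1.52, 0.948 to 2.47), and both genes had too few counts to pass the filter. The exact permutation test gave p = 0.0397 for H2-Aa and 0.0317 for H2-Eb1, both unadjusted, and the groups overlapped for each. H2-Aa reached 2.10 CPM at most in IkbkbCA, below the lowest H2-Ab1 value of that group. The α chain H2-Oa was called higher (1.99 ± 0.56, adjusted p = 0.0325, edgeR), with 9.61, 8.21, 1.66, 2.05 and 4.41 CPM in IkbkbCA against 1.13, 2.61, 0.558, 1.42 and 0.769 CPM in IkbkbWT. Its groups overlapped, since 2 IkbkbCA libraries lay below the highest IkbkbWT library.

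Around them, 5 of 9 interferon-γ route genes rose and 1, Usf1, fell by 0.57 ± 0.18. Of all 11697 genes tested, 855 rose and 837 fell. Socs1, a feedback inhibitor of the route, rose by 1.25 ± 0.32 and Irf1 by 0.76 ± 0.17. None of the 7 enhanceosome genes was called, Rfx5 being at 0.19 ± 0.17 (adjusted p = 0.545, edgeR). In the class I pathway 10 of 11 genes rose, with a median of 1.29, H2-K1 by 2.54 ± 0.18 and Nlrc5, the co-activator of class I that is the counterpart of Ciita, by 1.88 ± 0.38. Ctss (0.84 ± 0.15) and Sppl2a (0.71 ± 0.10) were the 2 of 9 processing genes that rose. Tnfaip2 (1.59 ± 0.17), Cd82 (1.05 ± 0.15) and March1 (0.83 ± 0.12) were the 3 of 8 traffic genes that rose. Markers of border-associated macrophages moved as well: 5 of 7 were lower, such as Lyve1 (log2 fold change -4.56 ± 0.38) and Mrc1 (-2.07 ± 0.14), and Ms4a7 rose by 0.97 ± 0.10. Their part in the class II change was not tested.

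**Figure D3:**
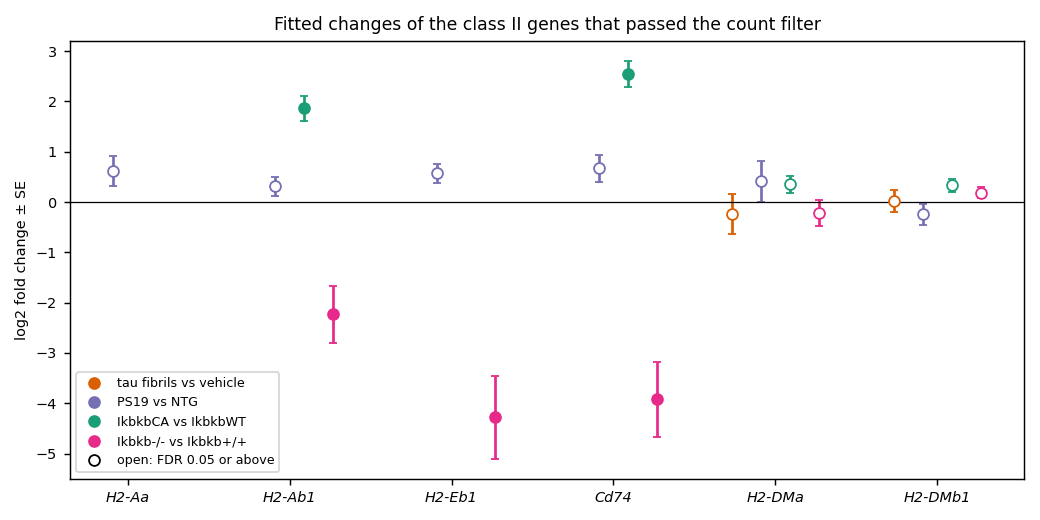
Log2 fold change ± SE (vertical axis) of the class II genes that passed the count filter in each comparison, with filled points for an adjusted p under 0.05. H2-Ab1 and Cd74 are above 0 in IkbkbCA, and H2-Ab1, H2-Eb1 and Cd74 are below 0 in Ikbkb-/-, where the control group holds the 3 libraries that stand apart.

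The fourth comparison asked what loss of Ikbkb did. H2-Ab1 was at 4.37, 2.48, 5.07 and 4.55 CPM in Ikbkb-/- and at 46.0, 20.3, 15.1 and 3.31 CPM in Ikbkb+/+. H2-Eb1 was at 2.19, 1.03, 0.461 and 0.546 CPM in Ikbkb-/- and at 42.4, 16.8, 14.9 and 1.59 CPM in Ikbkb+/+. Cd74 was at 0.547, 3.10, 2.31 and 0.910 CPM in Ikbkb-/- and at 52.4, 35.4, 32.3 and 1.72 CPM in Ikbkb+/+. In all 3 genes the high values were Ikbkb+/+ libraries 1 to 3, the ones with adult-library genes, and library 4 lay within the range of Ikbkb-/-, so that the groups overlapped.

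Fitted on all 8 libraries, all 3 fell, with log2 fold changes of -4.28 ± 0.83 for H2-Eb1, -3.92 ± 0.74 for Cd74 and -2.23 ± 0.56 for H2-Ab1 (adjusted p = 0.00143, 0.00118 and 0.0117, edgeR). DESeq2 called 3 members lower too, and limma-voom called 0 (adjusted p from 0.157 to 0.279 for these 3). That is 3 of 5 members tested, against 6.96% of 11242 genes called lower, and 17.9% of genes did not overlap between the groups. Cd74 and H2-Eb1 were tested here through the counts of Ikbkb+/+ libraries 1 to 3, where they are high. Cd74 had 146, 173 and 197 counts there and 1 to 15 in Ikbkb-/-, and H2-Eb1 had 118, 82 and 91 against 2 to 5. The number called is therefore no support. H2-DMa (-0.22 ± 0.26, adjusted p = 0.638) and H2-DMb1 (0.19 ± 0.11, adjusted p = 0.308, edgeR) were not called. H2-Aa, at 60.7, 32.6, 19.5 and 1.19 CPM in Ikbkb+/+ and at 0.546, 1.86, 1.61 and 0.546 CPM in Ikbkb-/-, did not pass the count filter. It had 20 counts in Ikbkb-/- and 456 in Ikbkb+/+ (ratio 0.0566, exact 95% counting interval 0.0343 to 0.0885). The exact permutation test gave p = 0.0571 for H2-Eb1, 0.0857 for Cd74 and H2-Aa and 0.114 for H2-Ab1.

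Without Ikbkb+/+ libraries 1 to 3 none of the 5 members was called. The log2 fold changes were then 0.33 for H2-Ab1, 0.14 for Cd74, -0.82 for H2-Eb1, 0.72 for H2-DMa and 0.24 for H2-DMb1 (adjusted p 0.818, 0.958, 0.699, 0.168 and 0.617, edgeR), so H2-Ab1, Cd74 and H2-DMa changed sign. This fit, chosen after the data were seen, leaves 1 control library, which is assumed to vary like the Ikbkb-/- libraries. It called 595 genes, against 1641 with all libraries. Siglech went the same way as class II, with a log2 fold change of -3.79 ± 0.68 (adjusted p = 0.000763, edgeR) with all libraries and standing at 0.14 ± 0.32 (adjusted p = 0.893) without the 3.

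**Figure D4:**
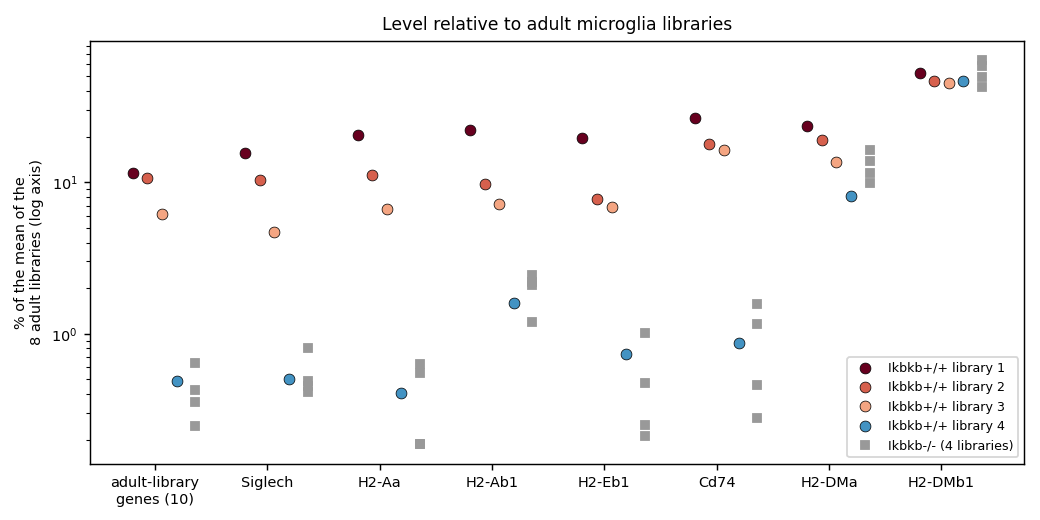
Level of the 10 adult-library genes (summed), of Siglech and of 6 class II genes in each Ikbkb+/+ library (circles) and each Ikbkb-/- library (grey squares), as % of the mean of the 8 adult libraries (log axis). Ikbkb+/+ libraries 1 to 3 stand well above library 4 and Ikbkb-/- in all but H2-DMa and H2-DMb1.

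The order of these control libraries was the same in the summed level of the adult-library genes and in H2-Aa, H2-Ab1, H2-Eb1 and Cd74. H2-Aa was at 20.6%, 11.1% and 6.64% of its adult mean in Ikbkb+/+ libraries 1, 2 and 3 and at 0.406% in library 4. Cd74 was at 26.5%, 17.9% and 16.3% and then 0.871%, and H2-Eb1 at 19.5%, 7.74% and 6.87% and then 0.732%. In the mix of the chains, H2-Aa of Ikbkb+/+ libraries 1 to 3 also differed from the other culture groups. Cd74 differed from both adult groups, and each other chain from at least 1 of them. Of the summed counts of H2-Aa, H2-Ab1, H2-Eb1 and Cd74, H2-Aa made up 28.4% in Ikbkb+/+ libraries 1 to 3 (exact 95% interval 26.2 to 30.7), 30.7% in NTG (29.6 to 31.7) and 34.1% in PS19 (33.5 to 34.7), but 12.9% in IkbkbWT (8.56 to 18.5) and 6.71% in IkbkbCA (4.84 to 9.03). Cd74 made up 32.8% in those 3 libraries (30.5 to 35.2) and 21.9% in NTG and 21.5% in PS19. It made up 35.6% in IkbkbCA and 38.2% with tau fibrils. By the intervals, the 3 libraries lay below PS19 in H2-Aa, below NTG in H2-Ab1 and below both in H2-Eb1. H2-Ab1 made up 20.3% in those 3 libraries (18.3 to 22.4) and 23.9% in NTG, but 50.3% in IkbkbCA (46.2 to 54.4), 50.8% in Ikbkb-/- (41.9 to 59.6) and 43.1% with tau fibrils (33.4 to 53.3). The vehicle cultures differed from these, with H2-Ab1 at 18.8% (8.95 to 32.6) and H2-Eb1 at 64.6% (49.5 to 77.8) of only 48 counts. H2-Eb1, the other β chain, did not share the pattern of H2-Ab1, with 18.5% in the 3 libraries (16.6 to 20.5) and 23.5% in NTG (22.6 to 24.4), against 7.38% in IkbkbCA (5.42 to 9.78) and 10.6% in Ikbkb-/- (5.92 to 17.1), while its 17.1% in IkbkbWT (12.1 to 23.2) and 15.7% with tau fibrils (9.24 to 24.2) had intervals that overlapped that of the 3 libraries. All these intervals pool the libraries of a group and cover counting error only, not the spread between libraries. A single library gave 14 of the 16 H2-Eb1 counts with tau fibrils, and a single library gave 20 of the 31 with vehicle.

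**Figure D5:**
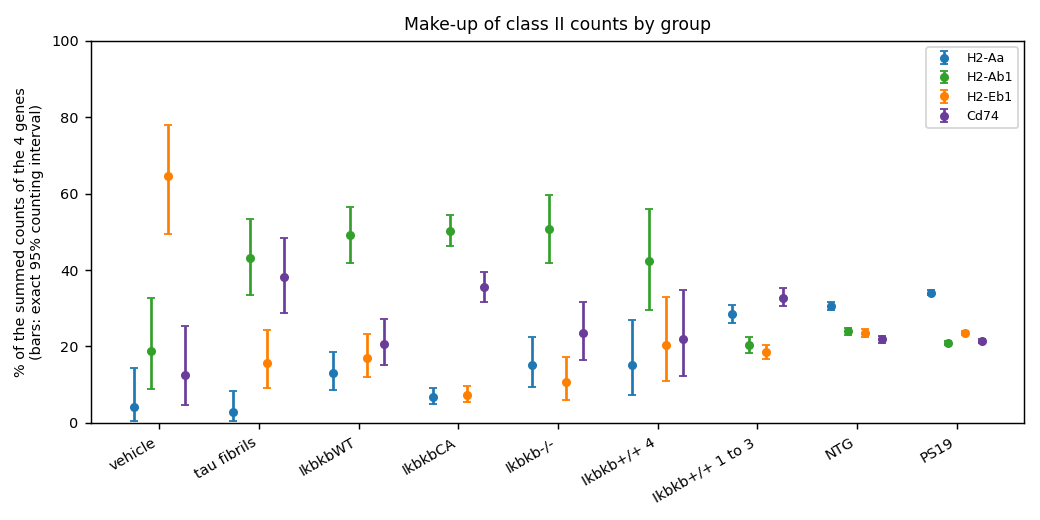
Share (% of summed counts, with exact 95% counting intervals) of H2-Aa, H2-Ab1, H2-Eb1 and Cd74 in each group, with Ikbkb+/+ split into library 4 and libraries 1 to 3. H2-Ab1 leads in IkbkbWT, IkbkbCA and Ikbkb-/-, H2-Aa leads in NTG and PS19, and Cd74 leads in Ikbkb+/+ libraries 1 to 3.

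In the class I pathway 10 of 11 genes were higher in Ikbkb-/-, with a median of 1.05 against 0.00 over all genes, H2-K1 by 1.42 ± 0.10, Tap1 by 1.74 ± 0.15 and Nlrc5 by 1.73 ± 0.25. Of all 11242 genes tested, 859 rose and 782 fell. Without Ikbkb+/+ libraries 1 to 3, 9 of 11 were still higher, with H2-K1 at 1.64 ± 0.15 (adjusted p = 2.39e-06, edgeR). On the interferon-γ route 2 of 9 genes rose and 0 fell, Socs1 by 1.70 ± 0.31, though Socs1 was not called without the 3 libraries (1.33, adjusted p = 0.148, edgeR). Ctss (0.41 ± 0.11) and Sppl2a (0.50 ± 0.08) rose, and Cst3, an inhibitor of cathepsins (-0.54 ± 0.16), and Ifi30 (-0.45 ± 0.14) fell. Without the 3 libraries Ctss and Sppl2a were still called, while Cst3 (0.17, adjusted p = 0.631) and Ifi30 (-0.06, adjusted p = 0.909, edgeR) were not. Class I genes were thus higher than in the controls both in IkbkbCA and in Ikbkb-/-. These 2 groups share the Cre allele, and its part in the class I values was not tested. Irf8 rose by 0.46 ± 0.08, the 1 of 3 genes of myeloid Ciita control that was called, and 0 of 8 traffic genes and 0 of 7 enhanceosome genes were called. Of the border-associated macrophage markers 6 of 7 fell and Ms4a7 rose by 0.39 ± 0.09, and S100a8 and S100a9 of granulocytes fell (-3.60 ± 0.90 and -3.66 ± 0.89). Without the 3 libraries 6 of 7 border-associated macrophage markers were again called lower and Ms4a7 was not called (0.30, adjusted p = 0.404, edgeR), while S100a8 (0.37, adjusted p = 0.785) and S100a9 (0.32, adjusted p = 0.823, edgeR) changed sign and were not called. Summed granulocyte genes ranged from 8.08 to 407 CPM in Ikbkb+/+ and from 8.07 to 13.01 CPM in Ikbkb-/-, and their part in the class II result was not tested.

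Differences between the changes were tested directly. The IkbkbCA change minus the Ikbkb-/- change was called above 0 in 4 of 6 members, 6.57 ± 0.91 for Cd74, 5.40 ± 1.12 for H2-Aa, 4.95 ± 1.00 for H2-Eb1 and 4.20 ± 0.70 for H2-Ab1 on the log2 scale (adjusted p from 0.000268 to 0.00902, edgeR), against 2.23% of 12352 genes. H2-Aa, which passed the count filter in neither comparison alone, and H2-Eb1, which did not in IkbkbCA, were tested here through the counts of Ikbkb+/+ libraries 1 to 3, where they are high, so the number called is no support. Without those libraries none of the 6 was called, Cd74 being at 2.48 (adjusted p = 0.239, edgeR) and H2-Ab1 at 1.58 (adjusted p = 0.401). The tau fibril change minus the IkbkbCA change was called in 0 of 5 members, where 9.42% of 12841 genes were called in either direction. It was 0.66 ± 0.50 for H2-Ab1 and 0.31 ± 0.59 for Cd74, with adjusted p from 0.294 to 0.795 (edgeR), and 0 of the 5 had an unadjusted p under 0.05. These errors leave room for sizeable differences in either gene. DESeq2 and limma-voom called 0 of them too. The tau fibril change minus the PS19 change was called in 1 of 6 members, H2-Ab1 at 2.18 ± 0.42 (adjusted p = 0.00152, edgeR), against 4.42% of 11852 genes called higher, and Cd74 was at 2.18 ± 0.68 (adjusted p = 0.0523, edgeR). Neither gene passed the count filter with fibrils alone, and both entered this fit through the adult libraries, where they are high. The call of H2-Ab1 was lost with limma-voom (adjusted p = 0.0539), in a single fit of all 34 libraries (adjusted p = 0.0851) and with a minimum of 10 counts in every library, which it did not pass.

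The neighbours of class II on chromosome 17 were counted as well. Of 14 protein-coding genes that start within 150 kb of H2-Aa, 3 of the 5 tested rose with tau fibrils: Psmb9 (3.02 ± 0.26), Psmb8 (2.66 ± 0.17) and Tap1 (2.65 ± 0.17), which supply peptides to class I. With IkbkbCA 4 of 8 rose, the same 3 genes and H2-Ab1. In Ikbkb-/- 4 of 9 rose, Tap1, Psmb9 (1.16 ± 0.10), Psmb8 (1.05 ± 0.09) and Tap2 (0.40 ± 0.13), and 2 fell, H2-Eb1 and H2-Ab1. In PS19 0 of 11 were called. Over all genes tested, 1506 of 10408 rose with tau fibrils and 855 of 11697 with IkbkbCA. In Ikbkb-/- 859 of 11242 rose and 782 fell. The class I peptide genes named and the chains H2-Eb1 and H2-Ab1 therefore moved in opposite directions in Ikbkb-/- when all Ikbkb+/+ libraries were used. Other class II chains tested within this stretch were not called and did not fall. They were H2-DMb2 (0.95 ± 0.37), H2-Ob (0.30 ± 0.30) and H2-DMb1 (0.19 ± 0.11).

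Within groups, the non-members whose level went most with Cd74 were, among 11706 genes over 34 libraries, Sparc (r = 0.796), Btg2 (0.759), Cldn5 (0.753), Slc2a5 (0.744) and Upk1b (0.726), by Pearson's r of log2 CPM after the group mean was taken off. For H2-Aa they were Klk8 (0.815), Dusp2 (0.802), Rps3a3 (0.797), Slc1a3 (0.788) and Siglech (0.779). All 10 were higher in each of Ikbkb+/+ libraries 1 to 3 than in library 4, Sparc for example at 966, 820 and 436 CPM against 102 CPM. The choice of genes by this correlation favours that, since these libraries are among the 34. Between the members themselves, r was 0.787 for H2-Aa with Cd74 and 0.716 for H2-Aa with H2-Ab1 over 34 libraries, and 0.304 and -0.000657 over the 30 libraries without Ikbkb+/+. The points share groups and depth, many values are a few counts, and the correlations are a description only.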

How the data were processed

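QuantSeq 3′ mRNA-Seq libraries of microglia were mapped by the authors on the BlueBee platform to the GENCODE GRCm38 genome. The labels name STAR, RSEM, edgeR and limma. The deposited files are raw counts per gene, 1 file a library, and whole numbers. Their 5 closing lines (reads with no feature, 12.4% to 38.3%, and the like) were left out. Total counts were 1672052 to 8349128. No 2 libraries were identical. Symbols came from GENCODE M21. The libraries were grouped by the labels, which do not say whether cultures came from separate litters, so p-values measure the spread between these samples. The members and lists were chosen with earlier results of these data known.

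Each comparison was fitted on its own libraries with edgeR 4.0.16 (R 4.3.3; TMM, filterByExpr with a minimum count of 10, quasi-likelihood test) and called at a Benjamini-Hochberg adjusted p under 0.05 over all genes tested. Differences between changes were interaction contrasts. SE is the log2 fold change divided by the root of F. Single members were also compared by exact two-sided permutation of CPM. Depth-corrected ratios of summed counts carry exact binomial intervals. The fits were tested on simulated data. DESeq2 1.42.0, limma-voom 3.58.1, other scalings, other filters and left-out libraries were alternatives. Named were all members, at most 4 called genes a list by size of change with Rfx5, Ctss, Irf1 and Ikbkb always, the 5 genes most like Cd74 and H2-Aa, and neighbours within 150 kb. Genes outside it (Siglech, Ddx3y, Xist, the adult-library list, Ms4a7, H2-Ob, Cd79b, Ebf1, Igkc, Ighm) were chosen after their values were seen. Some list genes are not reported here.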

Additional observations from a re-analysis of the deposited data

Results flagged for a closer look

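The change of class II RNA differed between IkbkbCA and Ikbkb-/- by the interaction test for Cd74 (6.57 on the log2 scale, adjusted p = 0.000268), H2-Aa (5.40, 0.00902), H2-Eb1 (4.95, 0.00714) and H2-Ab1 (4.20, 0.00162, edgeR), and in none of these 4 once Ikbkb+/+ libraries 1 to 3 were left out. H2-Aa and H2-Eb1 were tested there through the counts of those libraries, where they are high, so the number called is no support. H2-Ab1 differed between tau fibrils and PS19 (2.18, adjusted p = 0.00152, edgeR). It passed the count filter of that fit through the adult libraries, where it is high. The call was lost with limma-voom, in a single fit of all 34 libraries and with 10 counts required in every library.

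Single libraries lay far from the rest of their group for H2-Eb1 with tau fibrils (5.86 CPM, 14 counts), H2-Eb1 in IkbkbCA (2.29 CPM) and Cd74 in IkbkbWT (1.86 CPM). Ciita stood out in 1 library each of vehicle (0.999 CPM), IkbkbWT (0.324 CPM) and Ikbkb+/+ (0.359 CPM), where the others had 0 counts and these had 1 or 2. With 53 groups of values tested and about 1 in 20 flagged by chance, 6 such libraries were found.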

How the results depend on the processing

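Over 441 refits of single members, 411 kept their direction and their side of the threshold. The 2 calls in IkbkbCA held under every alternative but a minimum of 10 counts in every library, which left 0 because neither gene passed it, and leaving out 1 library gave 2 to 3. The 3 calls in Ikbkb-/- became 0 with limma-voom, 0 with 10 counts in every library and 0 without Ikbkb+/+ libraries 1 to 3 (H2-Ab1 0.33, Cd74 0.14 and H2-DMa 0.72 reversed), and were 3 to 4 when 1 library was left out. The IkbkbCA change minus the Ikbkb-/- change had 0 calls under the same 3 settings (H2-DMa -0.31 reversed). With tau fibrils 2 members were called with no filter, 1 in a single fit of all 34 libraries, and 0 to 0 with 1 library left out. The tau fibril change minus the PS19 change had 2 calls with DESeq2, the likelihood ratio test or no filter, and 0 with limma-voom, 10 counts in every library or the single fit. PS19 had 0 to 0 with 1 library left out. Near 0, H2-DMb1 with tau fibrils reversed with total-count scaling (-0.13), limma-voom (-0.0189) and without tau fibril library 2 (-0.14) or vehicle library 1 (-2.3e-05), 3 (-0.11) or 4 (-0.05), a range of -0.14 to 0.29 over left-out libraries, and limma-voom reversed Cd74 in fibrils minus IkbkbCA (-0.0266) and H2-Aa in fibrils minus PS19 (-0.0453). The cause was not tested. Of all genes, the 8 called in PS19 became 98 with DESeq2, 82 with the likelihood ratio test, 166 with no filter, 375 in the single fit, 54 without PS19 library 2, 4 with limma-voom or without NTG library 1 or 2, 5 without NTG library 3 or 4, and 0 with age as a covariate. Those of Ikbkb-/- (1641) became 515 in the single fit, the first difference (386) 225 there and 59 without the 3 libraries, and the third (957) 1541 in the single fit. No paired analysis was possible because the labels number no replicates across groups. Depth limits Ciita throughout, and H2-Aa and H2-Eb1 in culture.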
